A study of Mus musculus with 14 samples.

Results

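Genes that mark blood vessel endothelium were followed in fat of mice that differed in nutrition before and after birth. The 10 genes were Kdr, Flt1, Tek, Tie1, Aplnr, Eng, Cdh5, Pecam1, Emcn and Vwf. They were chosen by name, as every probe set annotated to these genes, which gave 15 probe sets among 22626 that are not controls and 10 genes of 12393 with a probe set. RNA of epididymal fat, a white fat depot, was hybridised to single-colour Affymetrix arrays, 1 per mouse, for 14 ICR mice labelled male and 3 weeks old. Neither pregnancy nor suckling was restricted in CC (n = 5, ad libitum chow in both). Mice of UC (n = 5) had 50% food restriction in utero and ad libitum chow during suckling, and UU (n = 4) had 50% restriction in both periods. All mice were at the age of weaning, and no group was restricted during suckling alone, so UU against UC sets a restricted suckling period against an ample one among mice that all had the prenatal restriction. By its title the study is concerned with fast growth after birth in mice born small, the question that UC against UU and UC against CC address. No label states whether any mice were littermates, so p-values measure the spread between these arrays.

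Endothelial cells line every vessel and are joined by VE-cadherin, the product of Cdh5, and by PECAM-1. VEGF acts on them through the receptor kinase of Kdr, while Flt1 binds VEGF tightly and signals weakly, so that it limits how much reaches Kdr. Angiopoietins act on Tek (TIE2), which pairs with the orphan receptor Tie1, and this pathway governs whether vessels stay quiet or are remodelled. Fat is densely supplied with capillaries, and new vessels form as a fat depot grows after birth. Whole tissue was measured, so fewer endothelial cells, less RNA per endothelial cell and a larger share of other tissue cannot be told apart.

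Arrays differed in ways the labels do not give, and values that touch the endothelial genes are set beside them below. Gpx5, an enzyme of epididymal epithelium, was dim in 4 arrays, at 409.6 to 1155, and ran from 5711 to 69624 in the remaining 10. The 4 dim arrays are CC2, CC4, UC2 and UC5, named by group and replicate. CC replicate 2 and UC replicate 5 carried Xist, an RNA of female cells, at 14479 and 9137, against at most 80.1 elsewhere, which goes against their male label. The log2 ratio of 3' over 5' control probe sets of Gapdh and Actb, a measure that rises with RNA degradation, ran from 0.40 to 1.08 in 11 arrays. It reached 1.63 in UC replicate 1, 1.60 in UC replicate 4 and 2.11 in UU replicate 3. UC replicate 2 also carried the liver transcript Alb at 25660. Endothelial transcripts beyond the 10 genes were present in each group: Cldn5, a tight junction claudin of vessels, had a signal of at least 1411 in every array, and Ramp2, the adrenomedullin receptor partner, of at least 2997. Of 10 such markers taken to check the tissue, Erg alone fell below the filter on dim genes.

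Sequences before the transcription start are given for 3 of these genes, none of them called. Tie1 had the largest estimated difference between UU and CC, Kdr had UU and CC values that overlapped widely, and Emcn lay between. Whether the sequences bear on these differences was not tested. Many endothelial genes are controlled by ETS family factors, which bind a GGAA core. In the lines that follow, taken from RefSeq (GRCm38.p6) and read 5' to 3' on the gene's strand, capitals mark GGAA or its reverse complement TTCC in the 250 bases before the start. The windows are chr4:118489850-118490099 on the minus strand for Tie1, chr5:75978456-75978705 on the minus strand for Kdr and chr3:137340828-137341077 on the plus strand for Emcn.
Tie1: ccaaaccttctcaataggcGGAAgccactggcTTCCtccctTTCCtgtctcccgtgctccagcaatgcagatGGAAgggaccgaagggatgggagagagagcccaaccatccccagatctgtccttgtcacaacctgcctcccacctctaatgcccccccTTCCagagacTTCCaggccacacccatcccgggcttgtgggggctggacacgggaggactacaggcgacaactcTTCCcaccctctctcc
Kdr: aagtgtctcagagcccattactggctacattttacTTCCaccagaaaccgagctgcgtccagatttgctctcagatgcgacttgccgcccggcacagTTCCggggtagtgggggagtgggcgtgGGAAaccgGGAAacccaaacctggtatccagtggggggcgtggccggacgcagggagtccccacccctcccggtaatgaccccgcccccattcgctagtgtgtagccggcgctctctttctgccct
Emcn: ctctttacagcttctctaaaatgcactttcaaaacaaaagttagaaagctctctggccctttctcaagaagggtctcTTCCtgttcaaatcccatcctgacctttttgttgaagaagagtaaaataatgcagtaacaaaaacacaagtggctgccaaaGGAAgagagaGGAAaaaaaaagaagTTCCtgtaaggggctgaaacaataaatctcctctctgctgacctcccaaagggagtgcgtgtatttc
GGAA was found 7 times before Tie1, and 4 times each before Kdr and Emcn. It is a short motif that 93.4% of all 32851 windows of this length hold on either strand. Its median over all windows was 3 matches, and 54.7% held it 3 or more times. The longer CAGGAA, which contains it, was found 1 time before Tie1, 2 times before Emcn and 0 times before Kdr, against 25.7% of all windows holding it at least once. A window was found for 6 of the 10 genes, and in the remaining 3 (Flt1, Tek and Eng) GGAA was found 4, 2 and 3 times. A match is a description of these letters and no measure of binding.

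In UU, most of the endothelial genes had lower signals than in CC, with Vwf lowest relative to CC among those tested, and none passed the test over all genes. Signals were taken to log2(signal + 32), and a gene was called at a Benjamini-Hochberg adjusted p under 0.05 in limma, over 7436 genes left after the dimmest 40% were removed. Of the 10 genes, 9 were tested and Tie1 fell below the filter. Called genes were 0 of 9 in UC against CC, 0 of 9 in UU against CC and 0 of 9 in UU against UC, where 0%, 0% and 0.847% of all genes tested were called. In UU against CC, 8 of 9 log2 differences lay below 0 (44.7% of all genes), with a median of -0.54 against 0.05 for all genes. In UU against UC, 8 of 9 lay below 0 (43.3%), with a median of -0.27 against 0.06. In UC against CC, 4 of 9 lay below 0 (50.7%), with a median of 0.09 against 0.00. An unadjusted p under 0.05 with the first group lower was reached by 4 of 9 in UU against CC (Vwf, Pecam1, Cdh5 and Emcn), by 4 of 9 in UU against UC (Vwf, Emcn, Kdr and Aplnr) and by 2 of 9 in UC against CC (Pecam1 and Cdh5). The same was reached by 7.75%, 9.24% and 3.99% of all genes tested. The median for UU against CC was -0.26 without the 4 arrays low in Gpx5, where 6 of 9 lay below 0, and -0.35 without UU replicate 3. That for UU against UC was -0.16 without the 4 arrays, -0.45 without UC replicate 4 and -0.50 without the 3 arrays of highest 3'/5' ratio.

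**Figure D1:**
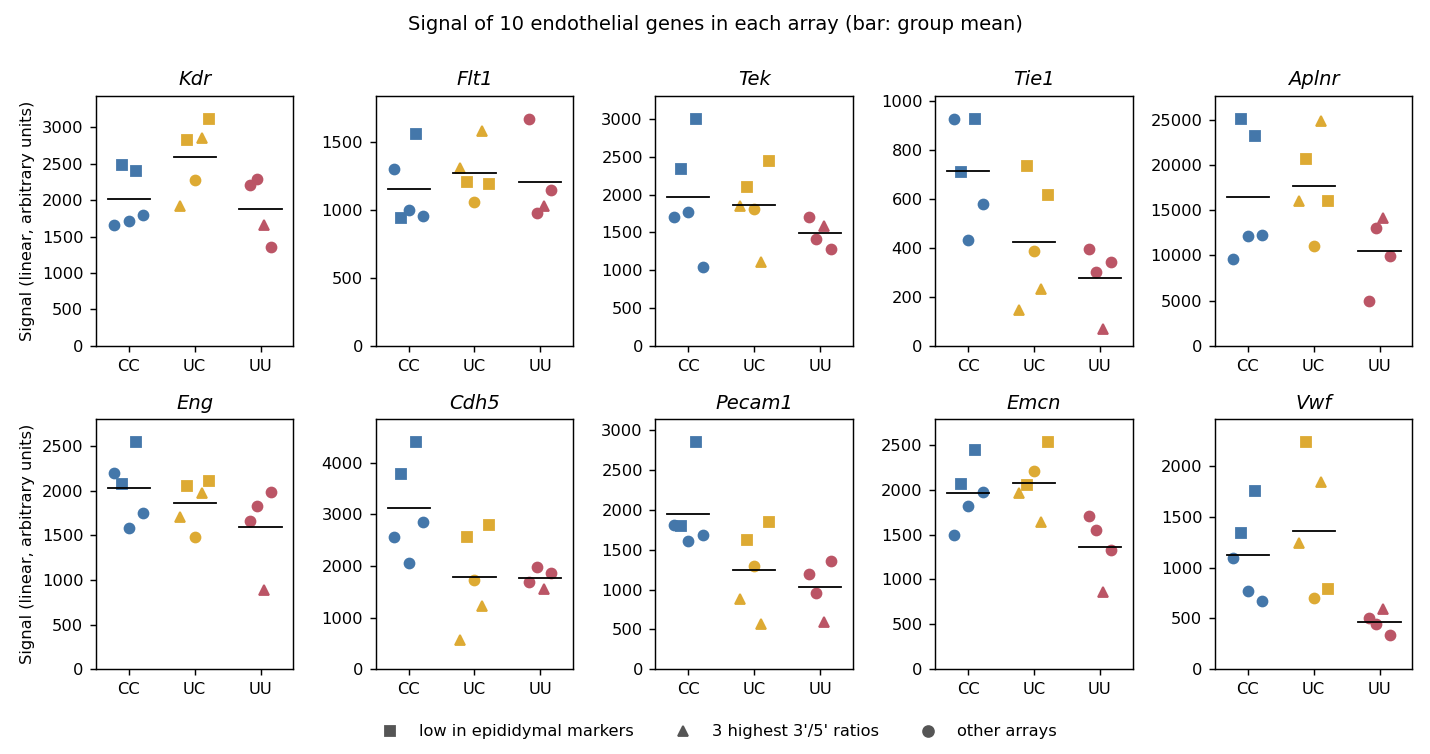
Signal of each gene's brightest probe set (linear scale, arbitrary units, axis from 0) in every array, with a bar at the group mean. Squares are the 4 arrays low in epididymal markers and triangles the 3 of highest 3'/5' ratio. All 4 UU values of Vwf lie below every CC and UC value, and for Pecam1, Cdh5 and Tie1 all 4 lie below every CC value.

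Kdr, the main signalling receptor of VEGF, was highest in UC. Its signals were 1664, 2488, 1717, 2401 and 1798 in CC replicates 1 to 5, 1925, 2827, 2270, 2845 and 3115 in UC replicates 1 to 5, and 2213, 2294, 1656 and 1360.1 in UU replicates 1 to 4. The 3 groups overlapped, although 3 of 5 UC values lay above every value of CC and UU. The log2 difference ± SE was 0.36 ± 0.19 for UC against CC (limma adjusted p = 0.61), -0.47 ± 0.20 in UU against UC (adjusted p = 0.233) and -0.11 ± 0.20 for UU against CC (adjusted p = 0.803). The 95% interval of the last ran from -0.53 to 0.31, so a difference of that size in either direction could not be told from 0. Its sign turned to 0.09 without the 4 arrays low in Gpx5.

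Flt1, the decoy-like VEGF receptor, passed the test in no comparison. The brightest of its 3 probe sets gave 1307, 940, 998, 1562 and 955 in CC, 1308, 1205, 1062, 1586 and 1193 in UC, and 1673, 980.2, 1031 and 1149.9 in UU, replicates in order. The highest value of all 14 arrays was in UU, and the groups overlapped throughout. Log2 differences were 0.15 ± 0.19 for UC against CC, 0.06 ± 0.20 for UU against CC and -0.09 ± 0.20 for UU against UC (limma adjusted p = 0.831, 0.885 and 0.839). The 3 probe sets disagreed in UU against CC, at 0.06, -0.43 and 0.18, and in UU against UC, at -0.09, -0.62 (unadjusted p = 0.0312, adjusted p = 0.342 over all probe sets in limma) and 0.22. Signals of the other 2 were 1034 ± 214, 1193 ± 266 and 792 ± 274 (mean ± SD of CC, UC and UU) for the second and 435 ± 58.0, 436 ± 147 and 497.5 ± 81.5 for the third. Flt1 is made in membrane-bound and soluble forms, and which form each probe set detects was not examined.

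Tek, the angiopoietin receptor, had signals of 1709, 2341, 1776, 3002 and 1043 in CC, 1845, 2105, 1808, 1103 and 2449 in UC, and 1700.7, 1413, 1588 and 1275.5 in UU. UU values lay inside the range of both other groups and close to each other. No difference passed (-0.05 ± 0.25, -0.32 ± 0.27 and -0.27 ± 0.27 for UC against CC, UU against CC and UU against UC, limma adjusted p = 0.979, 0.548 and 0.605). For UU against CC the 95% interval ran from -0.88 to 0.24, and the value was 0.02 without the 4 arrays low in Gpx5, which hold the 4 highest Tek signals.

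Tie1, the orphan partner of Tek, was the dimmest of the 10 genes and had the largest estimated difference between UU and CC. Its signals were 926, 710.2, 434, 927 and 579 in CC, 145, 733.5, 389, 231 and 615 in UC, and 397, 303, 69.7 and 343 in UU. Every UU value was below the lowest CC value, while UC spread across both. In a fit of all 22626 probe sets without a filter, Tie1 gave -1.41 ± 0.48 in UU against CC, -0.86 ± 0.45 in UC against CC and -0.54 ± 0.48 in UU against UC (limma adjusted p = 0.248, 0.644 and 0.663). In that fit 0 of the 15 endothelial probe sets were called in any comparison, where 0%, 0% and 0.0707% of all probe sets were. The 3 lowest Tie1 signals of all arrays were those of UU replicate 3, UC replicate 1 and UC replicate 4, the 3 arrays of highest 3'/5' ratio. Without these 3 arrays its log2 difference from CC was -0.93 in UU and -0.28 in UC, and with the ratio as a covariate -0.76 and -0.11. Without UU replicate 3 alone, UU against CC gave -0.93 and UU against UC -0.07.

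Cdh5 and Pecam1, which encode the junction proteins VE-cadherin and PECAM-1, were lower in both undernourished groups than in CC by their means, and neither passed over all genes. Cdh5 signals were 2555, 3790.2, 2063, 4399 and 2851 in CC, 574, 2567, 1729, 1228 and 2802 in UC, and 1695, 1982, 1551 and 1857 in UU. The UU values were tightly grouped below the lowest CC value, and UC held both the lowest signal of all arrays and values within the CC range. The log2 difference was -0.95 ± 0.34 for UC against CC (limma adjusted p = 0.516, unadjusted p = 0.0132), -0.77 ± 0.36 for UU against CC (adjusted p = 0.306) and 0.18 ± 0.36 for UU against UC (adjusted p = 0.82). A second, dimmer Cdh5 probe set gave -0.52 for UU against CC. Pecam1 signals were 1818, 1798, 1606, 2853 and 1690.2 in CC, 876, 1618, 1292, 571.5 and 1853 in UC, and 1192.5, 956, 596 and 1363 in UU. All 4 UU values and 3 of 5 UC values lay below every CC value. Its log2 difference was -0.72 ± 0.29 for UC against CC (limma adjusted p = 0.542), -0.94 ± 0.31 for UU against CC (adjusted p = 0.176) and -0.21 ± 0.31 for UU against UC (adjusted p = 0.746).

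The 3 arrays of highest 3'/5' ratio also held the 3 lowest signals of Pecam1 and of the brighter Cdh5 probe set, as for Tie1, and did so for no other of the 15 endothelial probe sets. Without them UC against CC gave -0.38 for Cdh5 and -0.28 for Pecam1. Of these arrays, UC replicate 1 left out alone gave -0.60 for Cdh5, and UC replicate 4 left out alone gave -0.48 for Pecam1. Without all 3 arrays, UU against CC was -0.70 for Cdh5 and -0.71 for Pecam1. With the ratio as a covariate, UC against CC gave -0.61 for Cdh5 and -0.29 for Pecam1. Their part in these differences was not tested. Kdr, Aplnr (brighter probe set) and Vwf differed from these on UC replicate 4, with a ratio of 1.60, which had the second highest signal of each. For the dimmer Aplnr probe set UC replicate 4 ranked 8 from the lowest. UU replicate 3, the array of highest ratio, ranked 2 from the lowest for Kdr, 4 for Vwf and 8 for the brighter Aplnr probe set.

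**Figure D2:**
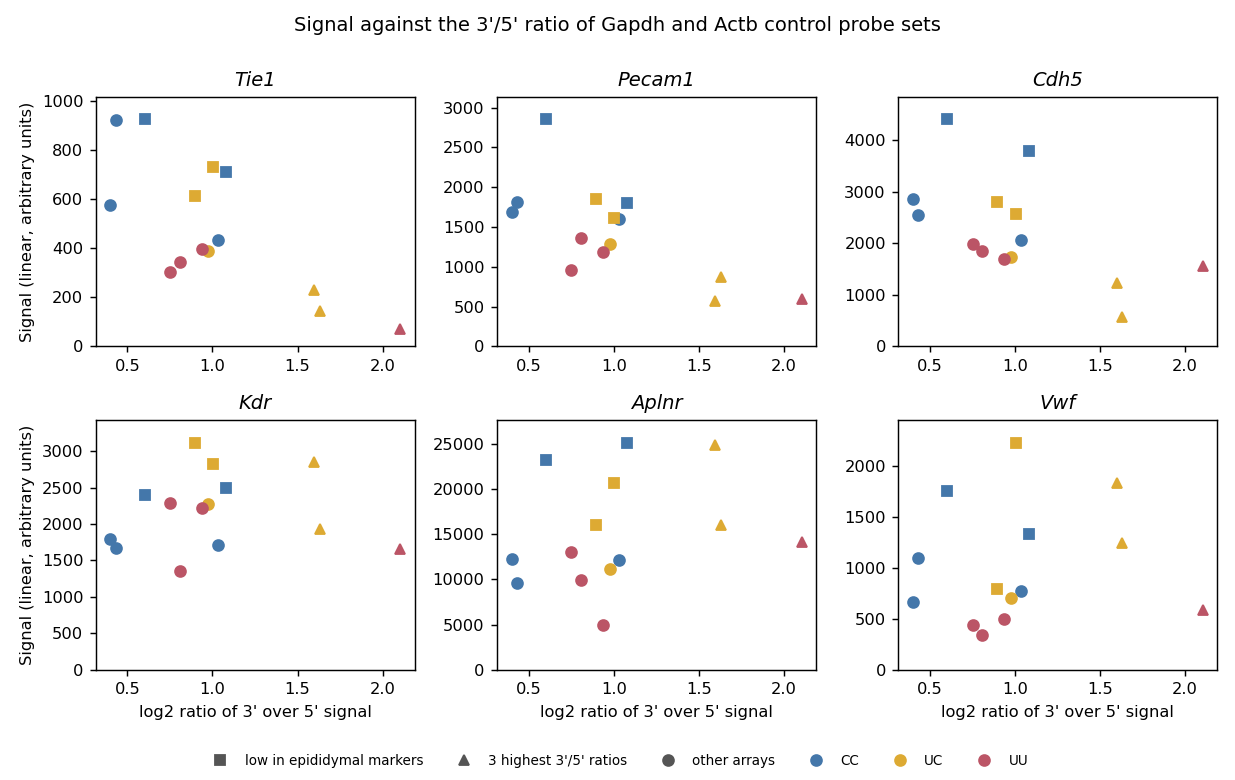
Signal of 6 genes (linear scale, arbitrary units) against the log2 ratio of 3' over 5' control probe sets, 1 point per array, colours for groups. The 3 arrays with ratios of 1.60, 1.63 and 2.11 (triangles) have the 3 lowest signals of Tie1, Pecam1 and Cdh5 in the upper row, and are spread over the range for Aplnr and Vwf.

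Emcn, the sialomucin endomucin of capillaries and veins, was lower in UU than in both other groups by its mean. Signals were 1491, 2065, 1821, 2447 and 1976 in CC, 1967, 2055.5, 2204, 1645 and 2530.2 in UC, and 1709, 1555, 857 and 1326 in UU. Of the UU values, 2 reached into the lower end of the CC range and 1 into that of UC. The log2 difference was -0.54 ± 0.20 for UU against CC (limma adjusted p = 0.213) and -0.63 ± 0.20 for UU against UC (adjusted p = 0.134). For UC against CC it was 0.09 ± 0.19 (adjusted p = 0.914). Without the 4 arrays low in Gpx5 the first 2 were -0.40 and -0.53. The lowest Emcn signal, 857, was that of UU replicate 3, the array of highest 3'/5' ratio, and UU against CC was -0.34 without it and -0.35 with the ratio as a covariate.

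Vwf, the clotting protein von Willebrand factor that endothelial cells store and megakaryocytes also make, separated UU from the other groups most clearly. Signals were 1099, 1338, 772, 1756 and 670 in CC, 1243, 2234, 701, 1840 and 791 in UC, and 499.7, 444.5, 591 and 339.6 in UU. Every UU value was below every value of the other 10 arrays, whereas CC and UC overlapped throughout. UU was 2.57-fold lower than UC, a log2 difference of -1.36 ± 0.34 (95% interval -2.10 to -0.63, limma adjusted p = 0.0783). Against CC, UU was 2.22-fold lower (log2 difference -1.15 ± 0.34, 95% interval -1.89 to -0.42, adjusted p = 0.16). UC against CC gave 0.21 ± 0.33 (adjusted p = 0.877). Both UU differences kept their sign in every alternative fit, from -1.35 to -0.81 against CC and from -1.56 to -1.15 against UC. With single arrays left out, the limma adjusted p of UU against UC ran from 0.0401, without UC replicate 3, to 0.224. Without the 3 arrays of highest 3'/5' ratio it was 0.23. Without the 4 arrays low in Gpx5, UU against UC was -1.29 and UU against CC -0.81 (limma adjusted p = 0.16 and 0.333). Of megakaryocyte and platelet markers, 4 were tested and 3 lay above 0 in UU against CC (median 0.36), with Pf4, a platelet chemokine and the brightest, at -0.61 ± 0.28 (adjusted p = 0.299) and Treml1 at 0.63 ± 0.22 (adjusted p = 0.181).

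Groups that did not overlap were counted over the tested genes. All UU values lay below all CC values for Vwf, Pecam1 and Cdh5 (brighter probe set only), 3 of 9, against 3.63% of all genes tested. All UU values lay below all UC values for Vwf alone, 1 of 9, against 3.54%. For UC against CC 0 of 9 were separate, against 0.767% with UC lower and 0.995% with UC higher.

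Eng and Aplnr are receptors outside the VEGF and angiopoietin families. Endoglin, encoded by Eng, is a co-receptor for BMP9 and TGF-beta in endothelium. Its signals were 2199, 2073, 1578.5, 2542 and 1749.7 in CC, 1702, 2055, 1476, 1970.3 and 2112 in UC, and 1659, 1832, 886 and 1988 in UU. Groups overlapped, and UU replicate 3 alone lay below all other arrays. Log2 differences were -0.11 ± 0.20, -0.39 ± 0.22 and -0.27 ± 0.22 for UC against CC, UU against CC and UU against UC (limma adjusted p = 0.898, 0.38 and 0.522). Without UU replicate 3 the value was -0.13 for UU against CC and -0.02 for UU against UC, and a second Eng probe set gave -0.38 with all arrays.

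Aplnr, the apelin receptor of sprouting and venous endothelium, had signals of 9583, 25091, 12105, 23185 and 12239 in CC, 16017, 20607, 11085, 24819 and 15993 in UC, and 4954, 13056, 14144 and 9918 in UU. The 2 highest CC values lay well above the other 3 and were the CC arrays low in Gpx5. The log2 difference was -0.64 ± 0.34 for UU against CC (limma adjusted p = 0.36), -0.80 ± 0.34 for UU against UC (adjusted p = 0.24) and 0.16 ± 0.33 for UC against CC (adjusted p = 0.912). A second, dimmer probe set gave -0.75 for UU against CC and -0.51 for UU against UC. For UC against CC it gave -0.24, opposite in sign to the brighter one. Without the 4 arrays low in Gpx5 the difference of the brighter probe set for UU against CC was -0.20. UU replicate 1, at 4954, lay far below the other 3 UU values, and without it UU against CC gave -0.32 and UU against UC -0.48.

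**Figure D3:**
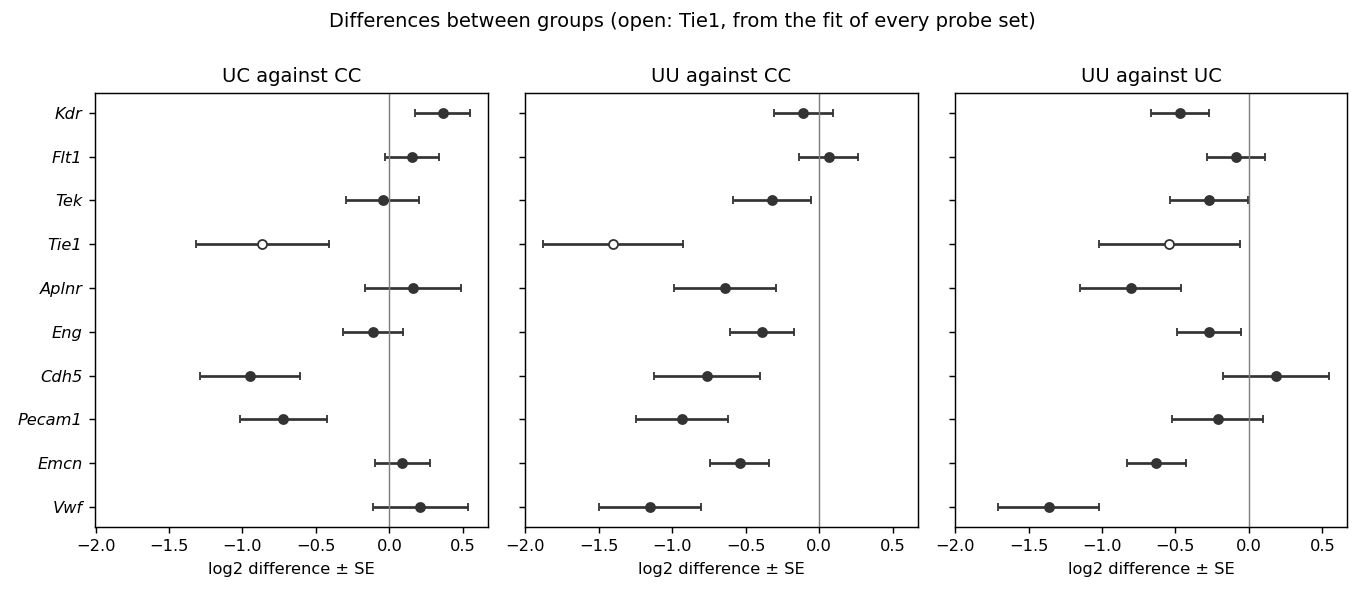
Log2 difference ± SE of each gene in the 3 comparisons, from limma (Tie1, open, from the fit of every probe set). In UU against CC every estimate except that of Flt1 lies below 0, from -1.41 for Tie1 to 0.06 for Flt1, whose sign turned with median centring (-0.011). In UU against UC that of Cdh5 alone lies above 0.

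The level of the endothelial genes as a group differed between arrays of different tissue make-up. The mean log2 level of the 9 tested genes was 11.28 to 11.66 in the 4 arrays low in epididymal markers, 10.81 to 11.02 in the other 6 CC and UC arrays, and 10.45 to 10.74 in UU. These ranges do not overlap. Summed signals of the 10 genes did: UU replicate 2 was at 24816, CC replicate 1 at 24348.5 and UC replicate 3 at 24016. UC replicate 4, at 37839, also lay above UC replicate 5, low in epididymal markers, at 33453. The mean of 5 epididymal markers was 7.08 to 7.94, 12.50 to 14.06 and 11.05 to 13.35 in the same sets of arrays, so the UU arrays and the 6 others overlapped in it. Macrophage markers were at 11.92 to 12.72, 11.24 to 12.03 and 10.37 to 11.22, and adipocyte markers at 14.06 to 14.55, 13.72 to 14.36 and 12.67 to 13.65. With the 4 arrays left out, the values of UU against CC were -0.81 for Vwf, -0.77 for Pecam1, -0.48 for Cdh5, -0.40 for Emcn, -0.26 for Eng and -1.25 for Tie1. Aplnr was at -0.20 in that fit, and Kdr (0.09), Tek (0.02) and Flt1 (0.13) lay above 0. With the 2 arrays with Xist left out, UU against CC gave -1.07 for Vwf, -0.96 for Pecam1, -0.68 for Cdh5, -0.52 for Emcn and -1.39 for Tie1. The same fit gave -0.46 for Aplnr, -0.37 for Eng, -0.24 for Tek, -0.03 for Kdr and 0 for Flt1.

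**Figure D4:**
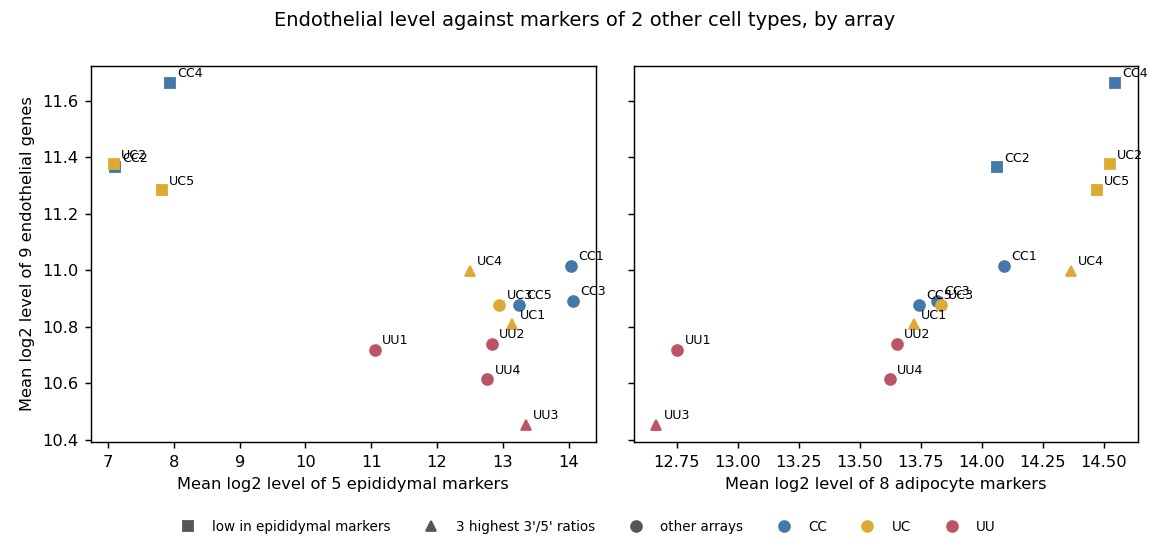
Mean log2 level of the 9 tested endothelial genes in each array against that of 5 epididymal markers (left) and 8 adipocyte markers (right). The 4 squares, low in epididymal markers, are highest on the vertical axis (11.28 to 11.66), and the 4 UU arrays are lowest (10.45 to 10.74).

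The ligands of these receptors showed no common direction. Of 10 tested, 6 lay below and 4 above 0 in UU against CC, with 0 called and a median of -0.12. Vegfa, the main ligand of Kdr, had signals of 2775 ± 909 in CC, 2083 ± 313 in UC and 2433 ± 1176 in UU (mean ± SD), and its log2 difference from CC was -0.36 in UC and -0.23 in UU. Vegfb, which binds Flt1, gave -0.77 ± 0.32 for UU against CC (limma adjusted p = 0.25). Tgfb2 gave 0.81 ± 0.24 (adjusted p = 0.148), Gdf2, which encodes the endoglin ligand BMP9, 0.44 ± 0.19 (adjusted p = 0.264) and Tgfb1 -0.43 ± 0.26 (adjusted p = 0.405). Apln, the ligand of Aplnr, gave -0.17 ± 0.21 and Angpt2, the ligand that opposes Tek signalling in quiet vessels, -0.06 ± 0.24. Vegfc, Pgf and Angpt1 fell below the filter and were not tested.

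Partner receptors likewise divided evenly, with 5 of 10 below and 5 above 0 in UU against CC, 0 called and a median of 0.02. Tgfbr2 gave -0.75 ± 0.24 (limma adjusted p = 0.169) and Acvrl1, the BMP9 receptor kinase that works with endoglin, -0.52 ± 0.22 (adjusted p = 0.265). Tgfbr1 gave 0.80 ± 0.35 (adjusted p = 0.278), and Ctnnb1, the catenin that binds VE-cadherin, 0.42 ± 0.20 (adjusted p = 0.314). Ptprb, the phosphatase of Tek and VE-cadherin, gave -0.48 ± 0.23, Flt4, the VEGF receptor of lymphatic vessels, 0.27 ± 0.22, and Nrp1, a VEGF co-receptor, -0.12 ± 0.25. Downstream, 11 of 17 tested genes of VEGF and Notch signalling lay below 0 with 0 called and a median of -0.12. Those of smallest p were Nck1 at -0.48 ± 0.18, Notch4, an endothelial Notch receptor, at -0.88 ± 0.34, Nos3, the endothelial nitric oxide synthase, at -0.59 ± 0.25, and Shc1 at -0.36 ± 0.16 (limma adjusted p = 0.22, 0.223, 0.254 and 0.29). Of 15 endothelial transcription factors tested, 11 lay below 0 with a median of -0.05 and 0 called. Ets1 gave -0.79 ± 0.23 and Klf4, a shear-responsive factor, -0.58 ± 0.21, while Nr2f2, which specifies veins, gave 0.75 ± 0.26 and Gata2 0.51 ± 0.23 (adjusted p = 0.154, 0.201, 0.183 and 0.286).

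A wider list of 44 other genes of endothelial cells, of which 37 were tested, lay mostly in the same direction as the 10 genes in UU. It was chosen with earlier results of these data known. Some of its genes, such as Cav1, Cd36 and Cd93, are also made by adipocytes or myeloid cells. In UU against CC 30 of 37 were below 0 (44.7% of all genes tested), with a median of -0.36 against 0.05 for all genes. An unadjusted p under 0.05 was reached by 12 with UU lower (7.75% of all genes) and by 0 with UU higher. None was called, as for 0% of all genes. In UU against UC 32 of 37 were below 0 (43.3% of all genes), with a median of -0.23 against 0.06 for all genes. There 10 had an unadjusted p under 0.05, all lower (9.24% of all genes). In UC against CC 23 of 37 were below 0 (50.7% of all genes), with a median of -0.06 against -0.004 for all genes. Without the 4 arrays low in Gpx5, 25 of 37 were below 0 in UU against CC and 24 in UU against UC, with medians of -0.24 and -0.12. The 4 genes of smallest p in UU against CC were Cd93 at -1.01 ± 0.21, Plvap, the diaphragm protein of fenestrae and caveolae, at -0.82 ± 0.26, the fatty acid transporter Cd36 at -0.80 ± 0.23 and Cd34, a sialomucin shared with progenitor cells, at -0.78 ± 0.24 (limma adjusted p = 0.104, 0.169, 0.146 and 0.165).

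In this list 2 of 37 genes were called lower in UU than in UC, where 0.847% of all genes tested were called in either direction. Cd93, a C-type lectin receptor of endothelial and myeloid cells, had signals of 7155, 9034, 6259.7, 9683 and 7344 in UC and of 2531, 4075.5, 2952 and 3684 in UU, which do not overlap. Its log2 difference was -1.25 ± 0.21 (limma adjusted p = 0.0279). A second, much dimmer Cd93 probe set gave 0.40 ± 0.35. The Cd93 call was lost with the mean of its probe sets (-0.43, adjusted p = 0.298), without the 4 arrays low in Gpx5 (-1.21, adjusted p = 0.0677), without the 3 of highest ratio (-1.14, adjusted p = 0.122), and when UC replicate 2, 4 or 5 or UU replicate 1 was left out (adjusted p = 0.0888, 0.0776, 0.0535 and 0.0956). Cav1, the caveolin of endothelial cells and adipocytes, was at 67720 ± 9389.6 in UC and 39778 ± 7567 in UU (mean ± SD), a log2 difference of -0.78 ± 0.17 (adjusted p = 0.0489). The call of Cav1 was lost in most alternative fits, with values from -0.87 to -0.63 and adjusted p of 0.0373 to 0.177 when single arrays were left out.

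**Figure D5:**
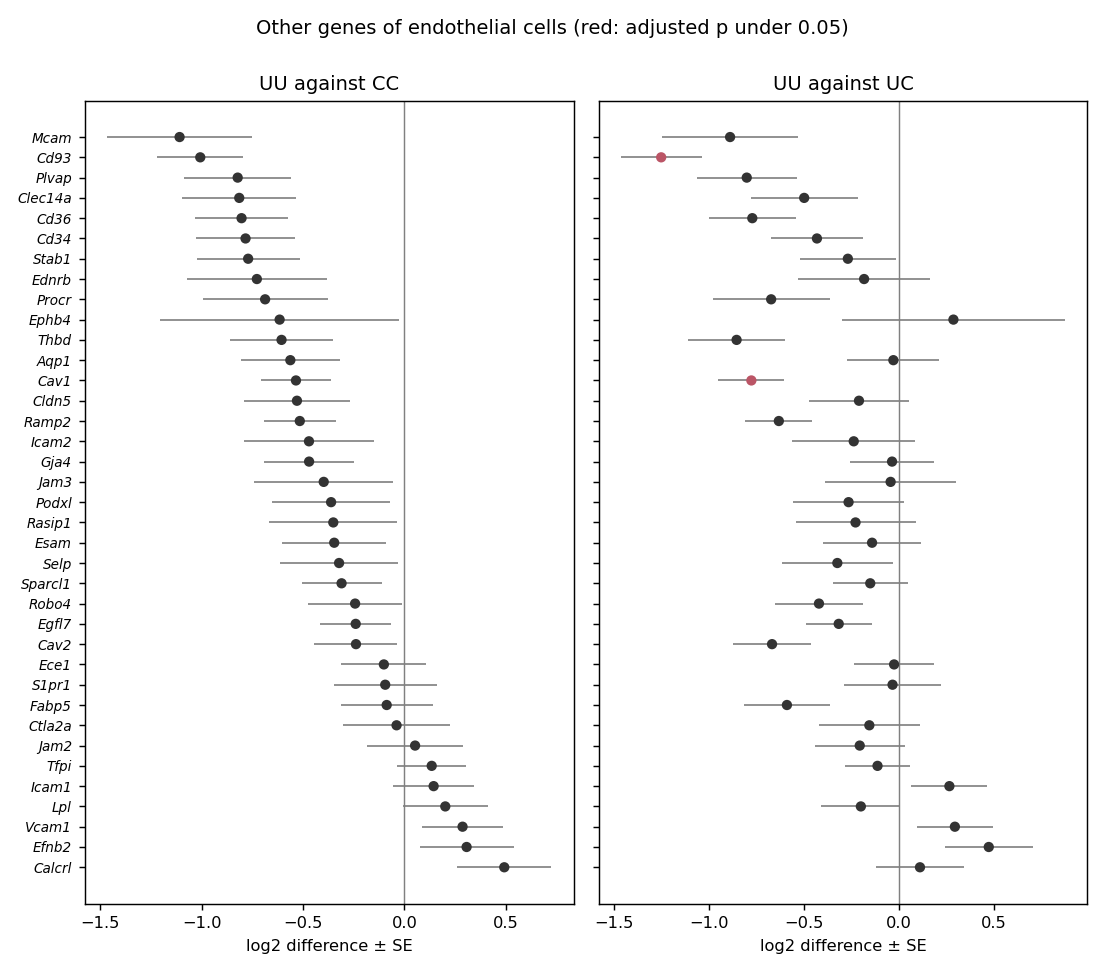
Log2 difference ± SE (limma) of the 37 tested genes of the wider endothelial list, ordered by UU against CC. In UU against CC 30 lie left of 0 and in UU against UC 32 do. The 2 red points are Cd93 and Cav1, called lower in UU than in UC.

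Markers of other cells in the fat pad differed beside the endothelial genes. Pericyte and vascular smooth muscle markers lay above 0 in UU against CC for 7 of 10 (median 0.22). An unadjusted p under 0.05 in limma was reached by 3, all lower (7.75% of all genes tested). Those 3 were the pericyte markers Kcnj8 (-0.80 ± 0.23), Pdgfrb (-0.68 ± 0.19) and Rgs5 (-0.75 ± 0.29), while the contractile Acta2, the brightest of the list, gave 0.41 ± 0.29. Of 4 lymphatic markers tested, 2 lay above 0 (median 0.04), with the brightest, Pdpn and Lyve1, at -0.18 ± 0.23 and -0.45 ± 0.33, and Reln at 0.72 ± 0.23 (unadjusted p = 0.00687). Macrophage markers lay below 0 for 11 of 12 (median -1.08), led in signal by Retnla at -2.29 ± 0.43 and Csf1r at -0.86 ± 0.37. Adipocyte markers lay below 0 for 8 of 8 (median -1.04), with the brightest, Fabp4 and Adipoq, at -0.17 ± 0.21 and -0.77 ± 0.24. Epithelial markers lay above 0 for 9 of 9 (median 0.97), and the 5 epididymal ones had a median of 1.51. No list member named here passed the test in UU against CC. In UU against UC, 11 of 12 macrophage markers lay below 0 (median -1.03) and 2 were called, against 0.847% of all genes tested. These 2 were Retnla at -2.72 ± 0.43 and Mrc1, the mannose receptor, at -1.17 ± 0.21 (limma adjusted p = 0.0279 and 0.0308). Adipocyte markers lay below 0 for 8 of 8 in that comparison (median -0.89), and epithelial markers above 0 for 9 of 9 (median 1.79). Their part in the endothelial values was not tested.

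The genes whose pattern over arrays was most like the mean log2 level of the 9 tested endothelial genes were Acvr1c, Dram1, Ppm1m, Fzd4, Fn1, Cd36, Prnp, Rgs5, Fcna and Phyh. Pearson's r was 0.96 for Acvr1c and 0.90 to 0.93 for the others (n = 14 arrays), given as a description. Within groups, after group means were removed, r was 0.94 for Acvr1c and 0.81 to 0.88 for the others. The arrays share the division by epididymal markers above, so the points are not 14 independent draws from 1 kind of tissue. Cd36, a fatty acid transporter of capillaries and adipocytes, and Rgs5, a regulator of G proteins in pericytes, are also in the lists above.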

How the data were processed

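The authors deposited linear intensity signals. GCOS 1.3 and MAS5 are the tools named in the submitters' processing notes. Probe sets were named through the platform annotation, with symbols updated through RefSeq. A gene (12393 in all) was represented by its brightest probe set on average. Values were taken as log2(signal + 32), the dimmest 40% of genes were left out, and all 14 arrays entered 1 limma 3.58.1 fit (R 4.3.3, 11 residual degrees of freedom, variance trend) with 3 two-sided contrasts. Adjusted p-values are Benjamini-Hochberg over all 7436 genes. A second fit took every probe set. The fit was tested on simulated data. Genes and lists were chosen with earlier results of these data known. Other genes named were the 4 of smallest p in UU against CC and those called in each endothelial list, fixed ligands and partners, the 2 brightest markers of each cell type discussed, and the 10 most like the endothelial mean; Kcnj8, Pdgfrb, Reln and Mrc1 were named after their values were seen. Alternatives changed the pseudocount (1, 128), filter, scaling, probe set rule, variance model, weights, block, covariates, threshold and arrays used. The fit without the 3 arrays of highest 3'/5' ratio was added after seeing the data. Detection calls and scan dates were not used here.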

Additional observations from a re-analysis of the deposited data

Results flagged for a closer look

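By Dixon's criterion, chance alone flags about 1 set in 20. Of 45 sets of 4 or 5 values examined (each endothelial probe set in each group), 1 held a value far from the others, no more than chance gives. This was Pecam1 in CC replicate 4, at 2853.2 (2853), whose gap to the next CC value covered 0.83 of the range of the group. CC replicate 4 was one of the 4 arrays low in epididymal markers and had the highest mean endothelial level, 11.66. The Pecam1 difference between UU and CC was -0.77 without those 4 arrays.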

How the results depend on the processing

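Among 31 settings, 875 of 909 alternative values of single endothelial genes kept their direction and their side of the threshold, 30 turned in sign and 4 passed the threshold. The 4 were Vwf in UU against UC, so that 1 gene was called with array weights (-1.53, adjusted p = 0.037), with the replicate block (-1.52, adjusted p = 0.0406), at an adjusted p under 0.1 (0.0783) and without UC replicate 3 (-1.56, adjusted p = 0.0401). The number called ran from 0 to 1 over the single arrays left out. Same-numbered arrays did not deviate together in every pair (r from -0.351 to 0.505), and the labels name no pairing. Whether the numbers pair samples cannot be told from these values, since CC2 and UC2, both low in epididymal markers, share a number. The block changed no other call of the 10 genes. Of the wider endothelial list, the block called Cd93 lower in UU against CC (-1.03, adjusted p = 0.0394) and lost the call of Cav1 in UU against UC (adjusted p = 0.058). It moved the count of all genes called in UU against UC from 63 to 95. The median of UU against CC was -0.26 without the 4 arrays low in epididymal markers. Sign changes were as follows. In UC against CC these were Tek at 0.016 (median centring), 0.005 (quantile normalization), 0.038 (array weights), 0.071 (without the 4 arrays) and 0.174 (without the 3 of highest ratio), Aplnr at -0.038 (mean of probe sets) and -0.121 (ratio as covariate), and Vwf at -0.016 and Eng at 0.149 (both ratio as covariate). In UU against CC they were Flt1 at -0.011 (median centring), -0.062 (mean of probe sets) and 0 (without the 2 Xist arrays), Kdr at 0.036 (array weights) and 0.091 (without the 4), and Tek at 0.015 (without the 4). In UU against UC they were Cdh5 at -0.002 (mean of probe sets) and -0.327 (without the 3), Pecam1 at 0.175 and Tie1 at 0.012 (without the 4), and Flt1 at 0.1 (without the 3). With single arrays left out, UC against CC ran from -0.005 to 0.342 for Aplnr, -0.003 to 0.172 for Emcn and -0.25 to 0.127 for Tek, UU against CC from -0.1 to 0.178 for Flt1 and -0.211 to 0.036 for Kdr, and UU against UC from -0.163 to 0.393 for Cdh5 and -0.455 to 0.017 for Pecam1. Cd93 in UC against CC was -0.001 with the mean of its probe sets. The cause was not tested. Genes called in UU against UC were 11 with no filter, 39 with the mean of probe sets, 100 with median centring, 111 with the ratio as covariate, 7 with only the 2 groups, 1 without the 4 arrays, 3 without the 2 and 0 without the 3, and 174 at an adjusted p under 0.1. They ran from 0 to 108 over single arrays left out. In UU against CC, where 0 were called, array weights gave 13, the epididymal covariate 11, and the block and an adjusted p under 0.1 gave 6 each. Signal over background was not used here, so how it limits the dim Tie1 is not given.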
